A study of Mus musculus with 16 samples.

Results

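The comparison set the livers of 3 fasted mice lacking PPARβ/δ against those of 5 fasted wild-type mice, 8 of the 16 arrays of the series. Ppard is the gene of PPARβ/δ, which binds fatty acids, pairs with a retinoid X receptor and switches on genes of fatty acid use. Liver relies on its relative PPARα for much of the response to a fast, when fatty acids from adipose tissue are burnt or made into ketone bodies. The comparison asks what the loss of PPARβ/δ changes in that state.

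All mice were males of a mixed Sv129/C57Bl/6 background, and the fasted groups had been without food for 24 h. The fed groups, used here only beside the fasted values, held 4 wild-type and 4 knockout mice. Each array was hybridised with RNA from a piece of 1 animal's liver. The series text speaks of at least 4 animals in each group, while the knockout fasted group has 3 arrays, and nothing used here says why. No source used here says how the knockout was made or whether the wild-type mice were littermates. A mixed background means that animals can differ at loci other than Ppard, and its part in the results was not tested.

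Hepatocyte genes were among the brightest on every array, with Alb, the albumin gene, at log2 12.19 to 12.44. Other tissues stood out on 2 of the 8 arrays. They were found by a list score, which is the average over a list's genes of each log2 value after subtracting the gene's mean of all 16 arrays. Knockout fasted mouse 1 scored 2.75 for skeletal muscle markers, where the remaining fasted mice ranged from -0.71 to -0.49, and read 7.21 for the muscle myosin gene Myh4. Wild-type fasted mouse 5 scored 1.76 for exocrine pancreas markers, where the remaining fasted mice ranged from -0.24 to 0.25. Their part in the results was not tested. Of the 42 called genes among those named by the rule given below, 16 kept their call without both mice and 26 lost it. Leaving out 1 mouse alone kept 23 calls for knockout fasted mouse 1 and 30 for wild-type fasted mouse 5. It kept 11 and 12 for knockout fasted mice 2 and 3, which had neither signal, so the losses cannot be laid to other tissues. Values without knockout fasted mouse 1 and wild-type fasted mouse 5 are given for some of the results only. Among the fed mice, wild-type mice 2 and 4 scored 1.88 and 3.94 for skeletal muscle markers, where the remaining fed mice ranged from -0.82 to -0.53. The part of this muscle signal in the fed values and the interaction was not tested.

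The targeted gene did not separate the groups. Ppard read 4.62, 4.40, 4.54, 4.67 and 4.58 (log2 intensity, here and below) in wild-type fasted mice and 4.50, 4.36 and 4.58 in knockout fasted mice. The groups overlap, and the difference of -0.08 ± 0.16 (standard error of the fit, here and below) did not pass (limma, Benjamini-Hochberg adjusted p = 0.908). No source used here says which exons were removed. The probe set may lie outside them, and so its value is no check of the genotype. Ppara read 8.65, 8.66, 8.93, 9.02 and 8.95 in wild-type and 8.55, 8.55 and 8.43 in knockout mice. Every knockout value is below every wild-type value, yet the difference of -0.33 ± 0.19 did not pass (adjusted p = 0.584). Pparg, the receptor of fat cells, read 4.34, 4.64, 4.48, 4.52 and 4.52 against 4.06, 4.30 and 4.12, with a difference of -0.34 ± 0.11 (adjusted p = 0.279).

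Of 19935 genes tested, 107 (0.537%) passed at an adjusted p under 0.05 in the knockout against wild-type comparison of fasted mice. Of these, 70 were higher in the knockout (0.351%) and 37 were lower (0.186%). At an unadjusted p under 0.05, 966 genes (4.85%) were higher and 1099 (5.51%) lower. The median size of the 107 differences was 0.70 on the log2 scale, and 25 reached 2-fold, 15 of them higher and 10 lower. In all 107 every knockout mouse lay on one side of every wild-type mouse, which was also so for 759 of all genes upward (3.81%) and 885 downward (4.44%). The median difference over all genes was -0.02.

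**Figure D1:**
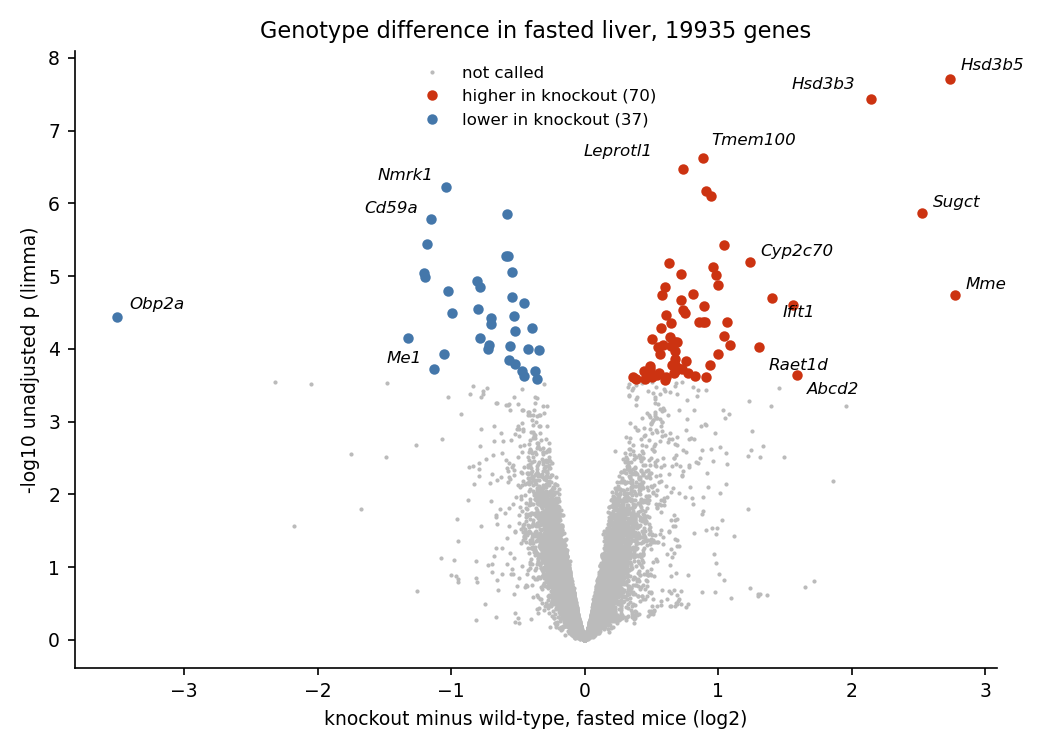
Difference between knockout and wild-type fasted livers (x axis, log2) against the -log10 of the unadjusted limma p (y axis) for each of the 19935 genes tested, 1 point per gene. Red points are the 70 genes called higher and blue points the 37 called lower at an adjusted p under 0.05; Obp2a at -3.51 and Mme at 2.78 are the extremes among the called genes.

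The largest rise was in Mme, which encodes neprilysin, a peptidase of the cell surface. Mme read 2.29, 2.36, 2.33, 2.42 and 2.37 in wild-type fasted mice and 5.02, 6.10 and 4.27 in knockout fasted mice. All wild-type values lie below 2.79, the level under which genes were taken as dim, while all knockout values are above it and far apart from each other. The fitted difference was 2.78 ± 0.47, a ratio of 6.85 (adjusted p = 0.0122), and the call was lost without knockout fasted mouse 2. Since the wild-type group is at the dim end, the ratio cannot be read as exact.

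Both 3β-hydroxysteroid dehydrogenase genes among the calls rose strongly. Hsd3b5 encodes a steroid reductase made mainly in male liver. Its values were 5.48, 4.47, 4.76, 4.73 and 3.76 in wild-type and 7.89, 7.14 and 7.10 in knockout fasted mice. The lowest knockout mouse is well above the highest wild-type mouse, and the difference was 2.74 ± 0.27, a ratio of 6.68 (adjusted p = 0.000367). Hsd3b3 read 5.97, 5.37, 6.11, 5.26 and 6.10 against 8.35, 7.48 and 7.89, again without overlap, a difference of 2.14 ± 0.22 (adjusted p = 0.000367). These genes belong to a cluster of close copies, and a probe set of one may pick up RNA of another.

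Sugct makes a mitochondrial CoA transferase that acts on glutarate, a product of lysine breakdown. It read 4.33, 4.81, 4.90, 4.77 and 4.57 in wild-type and 7.15, 7.35 and 7.12 in knockout fasted mice. The groups are tight and far apart, with a difference of 2.53 ± 0.34, a ratio of 5.78 (adjusted p = 0.00311). The calls of Hsd3b5, Hsd3b3 and Sugct held under each of the 18 alternatives tried for single genes.

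Several genes that handle lipids and bile acids rose as well. Cd36 encodes a fatty acid carrier of the cell membrane and is a known PPAR target. It read 5.49, 5.48, 5.72, 5.52 and 5.40 in wild-type and 6.74, 6.41 and 6.60 in knockout fasted mice. No values overlap, and the difference was 1.06 ± 0.19 (adjusted p = 0.0178). Cyp2c70, which makes the muricholic acids of mouse bile, read 9.18, 9.44, 9.82, 8.69 and 8.75 against 10.62, 10.38 and 10.25, a difference of 1.24 ± 0.19 (adjusted p = 0.00828). Abcd2, a transporter of very long acyl-CoA into peroxisomes, read 3.68, 4.19, 4.19, 4.03 and 3.89 against 5.06, 5.74 and 5.96. The groups are apart, but the rise of 1.59 ± 0.34 only just passed (adjusted p = 0.0476) and was lost on leaving out any 1 of the 8 fasted mice.

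**Figure D2:**
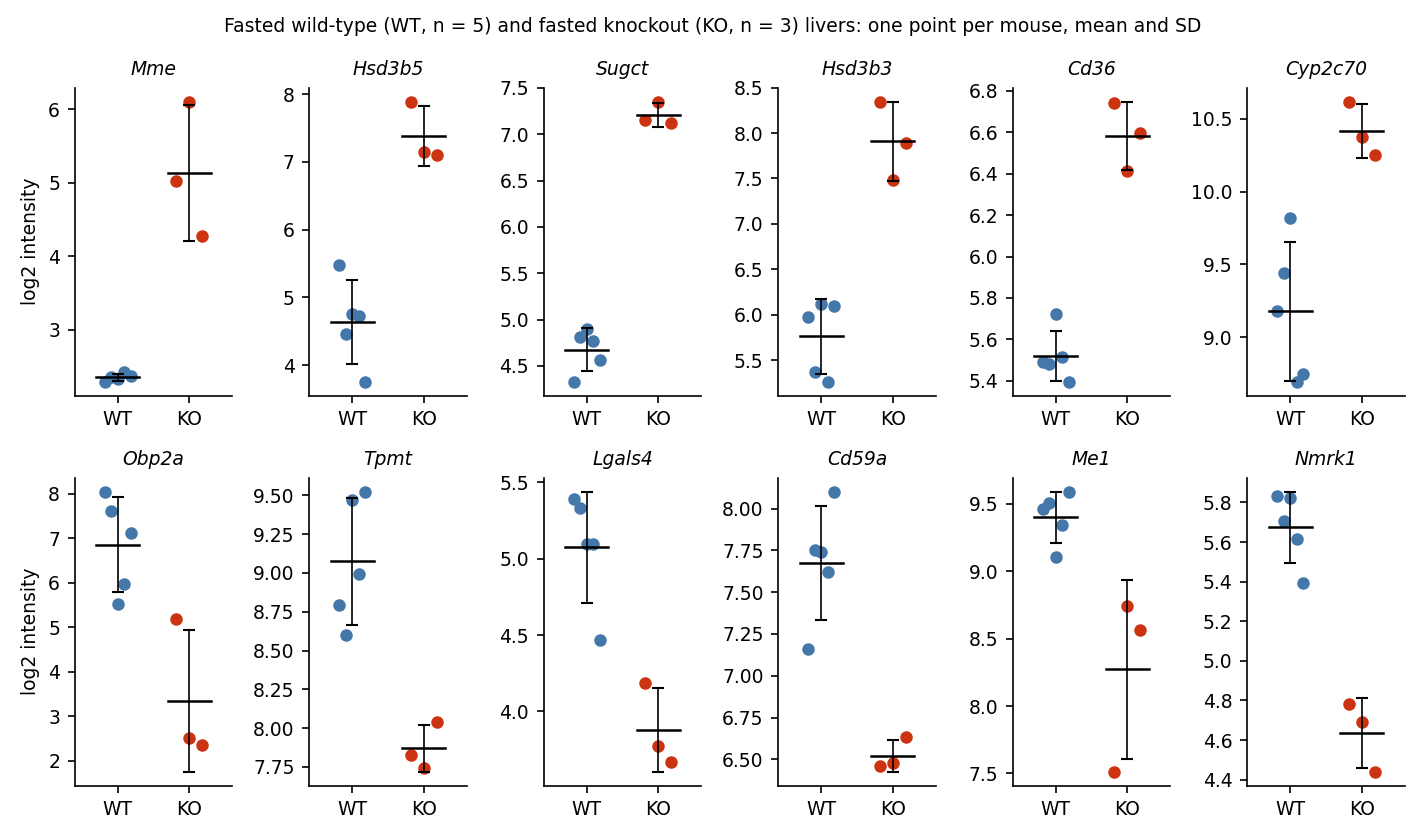
Log2 intensity (y axis, scaled for each gene and not starting at 0) of 12 genes in each fasted mouse, with blue points for the 5 wild-type (WT) and red points for the 3 knockout (KO) livers. Bars give the mean and SD; the groups overlap in none of these genes, and Mme, Obp2a and Me1 have the widest spread among the knockout mice.

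The largest fall was in Obp2a, which encodes a small carrier protein of the lipocalin family. It read 8.05, 7.61, 5.53, 5.97 and 7.13 in wild-type fasted mice and 5.20, 2.50 and 2.36 in knockout fasted mice. Knockout mouse 1 sits just under the lowest wild-type mouse while the other 2 are dim, so the spread is wide in both groups. The difference was -3.51 ± 0.63, with wild-type over knockout at 11.4 (adjusted p = 0.0169), and the call was lost without knockout fasted mouse 2, without mouse 3, with an intensity trend and in a fit of the fasted groups alone. Since knockout mice 2 and 3 are at the dim end, this ratio cannot be read as exact either.

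Enzymes that make NADPH, pyruvate and related metabolites were among the falls. Me1, the cytosolic malic enzyme that supplies NADPH for fatty acid synthesis, read 9.46, 9.51, 9.11, 9.34 and 9.59 against 7.51, 8.74 and 8.56. Knockout mouse 1, the mouse with muscle markers, is by far the lowest, and the difference of -1.13 ± 0.24 (adjusted p = 0.0441) became -0.75 without it (adjusted p = 0.174). Pklr, the liver pyruvate kinase, read 7.96, 7.79, 8.05, 7.17 and 8.51 against 6.97, 6.69 and 6.88. Its knockout mice lie close together below a scattered wild-type group, a difference of -1.05 ± 0.21 (adjusted p = 0.0321) that was lost on leaving out any fasted mouse other than wild-type 4. Tkfc, which phosphorylates glyceraldehyde in fructose use, fell by 0.78 ± 0.13 (adjusted p = 0.0109).

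Among the other falls were Cd59a, Nmrk1 and Tpmt. Cd59a, an inhibitor of the complement attack complex, read 7.16, 7.75, 7.74, 7.62 and 8.10 in wild-type and 6.46, 6.48 and 6.63 in knockout fasted mice. The knockout values form a narrow band below all others, with a difference of -1.15 ± 0.16 (adjusted p = 0.00326). Nmrk1, a kinase that feeds nicotinamide riboside into NAD synthesis, read 5.83, 5.70, 5.82, 5.61 and 5.40 against 4.78, 4.69 and 4.44, a difference of -1.04 ± 0.13 (adjusted p = 0.00227). Tpmt, which methylates thiopurine drugs, read 8.79, 8.60, 9.47, 8.99 and 9.53 against 7.83, 7.75 and 8.04, a difference of -1.20 ± 0.19 (adjusted p = 0.00911). All of these groups are apart, and the calls of Cd59a and Nmrk1 held under each of the 18 alternatives.

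Further named falls were Lgals4, a galectin, at -1.20 ± 0.19, Ocel1 at -1.18 ± 0.17, Fam131c at -1.02 ± 0.17 and Serinc2 at -0.99 ± 0.18. Fam241b, Sall1 (a zinc finger transcription factor) and Pde4c (a cyclic AMP phosphodiesterase) each fell by 0.79 to 0.80. Other named rises were Raet1d, a ligand of the NK cell receptor NKG2D, at 1.30 ± 0.25, and Tmem184c at 1.00 ± 0.20. All wild-type fasted values of Raet1d, 2.08 to 2.64, lie below the dim level of 2.79, so the size of its rise cannot be read as exact.

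Of 54 PPAR target genes measured, Cd36 rose and Acadm fell, beside 0.537% of all genes called either way, and the median was -0.04 beside -0.02 over all genes. At an unadjusted p under 0.05, 11 of the 54 were lower and 4 higher, beside 5.51% and 4.85% of all genes. The score of this list ran from 0.32 to 0.58 in knockout fasted mice and from 0.26 to 0.84 in wild-type fasted mice, so the groups overlap. Members that did not pass, picked after their values were seen from among those with small differences, included Angptl4 at -0.02 ± 0.21, Ehhadh at -0.01 ± 0.28, Cpt1a at -0.22 ± 0.18 and Cyp4a14 at 0.18 ± 0.66. The error of Cyp4a14 is large beside its difference, and no small change could have been seen in it.

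Mitochondrial fatty acid oxidation gave 2 falls among 27 measured genes and no rise, beside 0.186% of all genes called lower. The median was -0.13, and 23 members were below 0, as were 11363 of the 19935 genes tested. Acadm, the medium-chain acyl-CoA dehydrogenase, read 10.73, 10.44, 10.44, 10.65 and 10.58 in wild-type and 10.12, 10.11 and 10.12 in knockout fasted mice. Hadh, which acts at a later step of the same cycle, ranged from 9.99 to 10.21 in wild-type mice, with 9.77, 9.73 and 9.55 in the knockout. In both genes the knockout mice are the lowest 3 of the 8. The falls were small, -0.45 ± 0.08 for Acadm (adjusted p = 0.0138) and -0.40 ± 0.07 for Hadh (adjusted p = 0.0199), and neither call held without knockout fasted mouse 2 or without mouse 3. Peroxisomal genes gave 1 rise among 44, Abcd2, beside 0.351% of all genes called higher, with a median of -0.06.

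Fatty acid and triglyceride synthesis gave 2 falls among 34 genes, Me1 and Pklr, beside 0.186% of all genes called lower. Its median was -0.09. Glycolysis and related sugar pathways gave 1 fall among 29, again Pklr, at a median of -0.01. Cholesterol synthesis (21 genes), gluconeogenesis (18) and lipoprotein genes (27) held no call, with medians of -0.08, 0.07 and -0.04. Among lipoprotein genes, the apolipoprotein gene Apoa4 was at -0.84 ± 0.19 (adjusted p = 0.0544), just short of the threshold. Lpl, the lipoprotein lipase, was at 1.31 ± 0.38 (adjusted p = 0.176), with the muscle-marked knockout mouse 1 highest at 6.36. Knockout mice 2 and 3 read 5.19 and 5.49, also above the wild-type fasted mice at 4.13 to 4.54.

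Genes of male-biased expression in liver lay mostly above 0. Of 21 measured, 2 rose and none fell, 17 were above 0, and the median was 0.31 beside -0.02 over all genes, of which 0.351% were called higher. At an unadjusted p under 0.05, 11 of the 21 were higher and 1 lower, and in 6 every knockout mouse lay above every wild-type mouse, beside 4.85%, 5.51% and 3.81% of all genes. Beside Hsd3b5, Slco1a1, an uptake carrier of bile acids and steroids, rose by 0.68 ± 0.14 (adjusted p = 0.0413). The list's score was -0.06 to 0.17 in knockout fasted mice and -0.65 to -0.04 in wild-type fasted mice, where mouse 1, at -0.04, reached into the knockout range. Of 25 female-biased genes only Cd36 rose and none fell, with a median of 0.00.

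Cytochrome P450 genes of families 1 to 3 gave 3 rises among 43 and no fall, beside 0.351% of all genes called higher. The median was 0.21, and 34 members were above 0, as were 8572 of the 19935 genes tested. At an unadjusted p under 0.05, 13 were higher and 2 lower, beside 4.85% and 5.51% of all genes. In 9 every knockout mouse lay above every wild-type mouse, beside 3.81% of all genes. Beside Cyp2c70, its neighbour Cyp2c67 read 9.26, 9.16, 9.42, 9.03 and 9.33 in wild-type and 10.33, 10.25 and 10.03 in knockout fasted mice, a difference of 0.97 ± 0.15 (adjusted p = 0.00876). Cyp2f2, which oxidises naphthalene, read 10.92, 10.56, 10.88, 10.62 and 10.58 against 11.37, 11.30 and 11.28, a difference of 0.60 ± 0.10 (adjusted p = 0.0109). In all 3 every knockout mouse is above every wild-type mouse, but Cyp2c genes are close copies and their signals may mix. None of the 3 kept its call without both knockout fasted mouse 1 and wild-type fasted mouse 5.

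Endoplasmic reticulum and heat shock genes gave 1 rise among 35, beside 0.351% of all genes called higher, with a median of 0.21. Pdia6, a disulphide isomerase of the reticulum, read 8.15, 8.48, 8.26, 8.15 and 8.48 in wild-type and 9.22, 9.13 and 9.30 in knockout fasted mice. Its groups are narrow and apart, a rise of 0.91 ± 0.12 (adjusted p = 0.00227) that held under each of the 18 alternatives. In 17 of the 35 genes every knockout mouse lay above every wild-type mouse, beside 3.81% of all genes, and 18 had an unadjusted p under 0.05, beside 4.85% of all genes. The score ran from -0.02 to 0.06 in the knockout and from -0.36 to -0.23 in wild-type fasted mice, with no overlap. The fit without knockout fed mice 1 and 4, which stood apart among fed mice, called 9 of the 35 genes, and the fit of the fasted groups alone called 6.

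Circadian clock genes held no call among 20, with a median of -0.22 and 8 members lower at an unadjusted p under 0.05, beside 5.51% of all genes. Per3, a repressor of the clock, read 4.04, 3.44, 4.91, 3.89 and 4.46 in wild-type and 2.89, 3.37 and 3.11 in knockout fasted mice. The knockout values are the lowest 3, but the difference of -1.03 ± 0.24 did not pass (adjusted p = 0.0621). No source used here gives the hour at which a mouse was killed.

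Some other lists held 1 call each. The coagulation factor gene F11 was the 1 rise among 40 complement and coagulation genes (0.66 ± 0.14, adjusted p = 0.0413), and Mccc1, a carboxylase of leucine breakdown, the 1 rise among 47 amino acid genes (0.56 ± 0.12, adjusted p = 0.0459). Slco1a1 was the 1 call, a rise, among 35 bile acid genes. Of all genes tested, 0.351% were called higher. No call was made among genes of the growth hormone axis (17), glucocorticoid response (21), conjugating transferases (37), nuclear receptors (41), acute phase (35), MHC (23), NRF2 (24), proteasome (31), respiratory chain (69), cell cycle (37) or immediate early response (23). Some of these lists, picked after their values were seen, leaned 1 way at an unadjusted p under 0.05, beside 4.85% of all genes higher and 5.51% lower. Complement and coagulation had 6 higher and 0 lower, with 31 of 40 above 0. Amino acid genes had 8 higher and 2 lower, with 24 of 47 above 0. The growth hormone axis had 4 higher and 0 lower, and NRF2 had 0 higher and 5 lower, with 20 of 24 below 0.

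Interferon-stimulated genes were the largest group among the rises. Type I interferon is an antiviral signal that turns on many genes carrying a short promoter motif, the interferon-stimulated response element. Of 39 such genes measured, 8 rose and none fell, and of 10 interferon-inducible GTPases 2 rose and none fell, beside 0.351% of all genes called higher. The promoters of 5 of these genes are shown first because they share that motif. They are stretches upstream of the transcription start in the RefSeq tables for GRCm38.p6, with each match to the core GAAANNGAAA in capitals, on either strand, where overlapping matches run together.

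Ifit1: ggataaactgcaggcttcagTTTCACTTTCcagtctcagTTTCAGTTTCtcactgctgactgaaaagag
Ifit3: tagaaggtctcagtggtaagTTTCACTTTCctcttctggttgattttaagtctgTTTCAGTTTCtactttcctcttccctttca
Rsad2: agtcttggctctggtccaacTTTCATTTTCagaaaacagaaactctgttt
Bst2: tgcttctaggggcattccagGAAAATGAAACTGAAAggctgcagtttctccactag
Gbp3: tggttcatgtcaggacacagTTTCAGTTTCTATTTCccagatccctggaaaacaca

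These lie at chr19:34640765-34640833 (+ strand) for Ifit1, chr19:34583353-34583436 (+) for Ifit3, chr12:26456543-26456592 (- strand) for Rsad2, chr8:71537567-71537622 (-) for Bst2 and chr3:142559979-142560034 (+) for Gbp3. Counted from the start site, the first match begins at base -104 in Ifit1, -156 in Ifit3, -120 in Rsad2, -130 in Bst2 and -45 in Gbp3. In windows from 250 bases before to 50 after the start, all 9 called interferon genes found in the table held a match, and Rtp4 had no entry. None of the 45 other genes that rose and had a window held one, nor did any of the 33 that fell apart from Cd59a. Matches were found in 3.44% of all 32851 windows, and in 9 of the 24 interferon genes that were measured and not called. The PPAR-type direct repeat AGGTCANAGGTCA was found in 0.0396% of all windows and in none of the 87 called genes that had a window. With so rare an exact match, none was to be expected among so few genes, and no conclusion is drawn from it. A match is a description of letters, not a bound site.

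Ifit1, whose protein binds viral RNA, read 3.13, 2.95, 3.71, 3.62 and 3.40 in wild-type and 4.63, 5.02 and 4.65 in knockout fasted mice. The groups are apart, and its rise of 1.40 ± 0.24 was the largest of the interferon genes (adjusted p = 0.0125). Bst2, or tetherin, which holds budding virus at the membrane, read 6.23, 6.32, 6.35, 5.94 and 5.67 against 7.30, 7.06 and 7.10. No mouse overlaps, and the rise of 1.05 ± 0.15 (adjusted p = 0.00628) held under each of the 18 alternatives. Rsad2, or viperin, read 3.64, 4.15, 4.33, 4.28 and 4.11 against 5.33, 5.15 and 4.96, a rise of 1.05 ± 0.20 (adjusted p = 0.0245). Gbp3, a guanylate-binding GTPase, read 3.76, 3.98, 4.24, 3.52 and 3.62 against 4.53, 5.11 and 5.08, a rise of 1.09 ± 0.21 (adjusted p = 0.0281).

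Rtp4 rose by 1.00 ± 0.16 (adjusted p = 0.0109). The GTPase gene Irgm1 read 5.04, 5.21, 5.77, 5.10 and 5.21 in wild-type and 5.80, 5.86 and 5.97 in knockout fasted mice, with wild-type mouse 3 almost touching the knockout group. Its rise was 0.61 ± 0.13 (adjusted p = 0.0476). The other 4 calls, named after their values were seen, were Ifit3 at 0.90 ± 0.16, Ifitm3 at 0.72 ± 0.11, and the RNA sensor genes Ifih1 (MDA5) at 0.69 ± 0.13 and Ddx58 (RIG-I) at 0.55 ± 0.11.

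Among those not called, the signal factor genes Usp18 and Irf7 were at 1.08 ± 0.26 and 1.05 ± 0.26 (adjusted p = 0.0839 and 0.0892), while Stat2 was at -0.13 ± 0.11. Over the 39 interferon-stimulated genes the median was 0.54, 34 were above 0, and in 23 every knockout mouse lay above every wild-type mouse, beside 3.81% of all genes. The score of the list was -0.04 to 0.05 in knockout fasted mice and -0.58 to -0.26 in wild-type fasted mice. The count of 8 depends on the mice: it was 5 without knockout fasted mouse 1, 3 without mouse 2, 1 without mouse 3, 5 without wild-type fasted mouse 5, and 2 without knockout mouse 1 and wild-type mouse 5 together. With array weights it was 14. The median stayed between 0.49 and 0.55 under all of these settings.

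**Figure D3:**
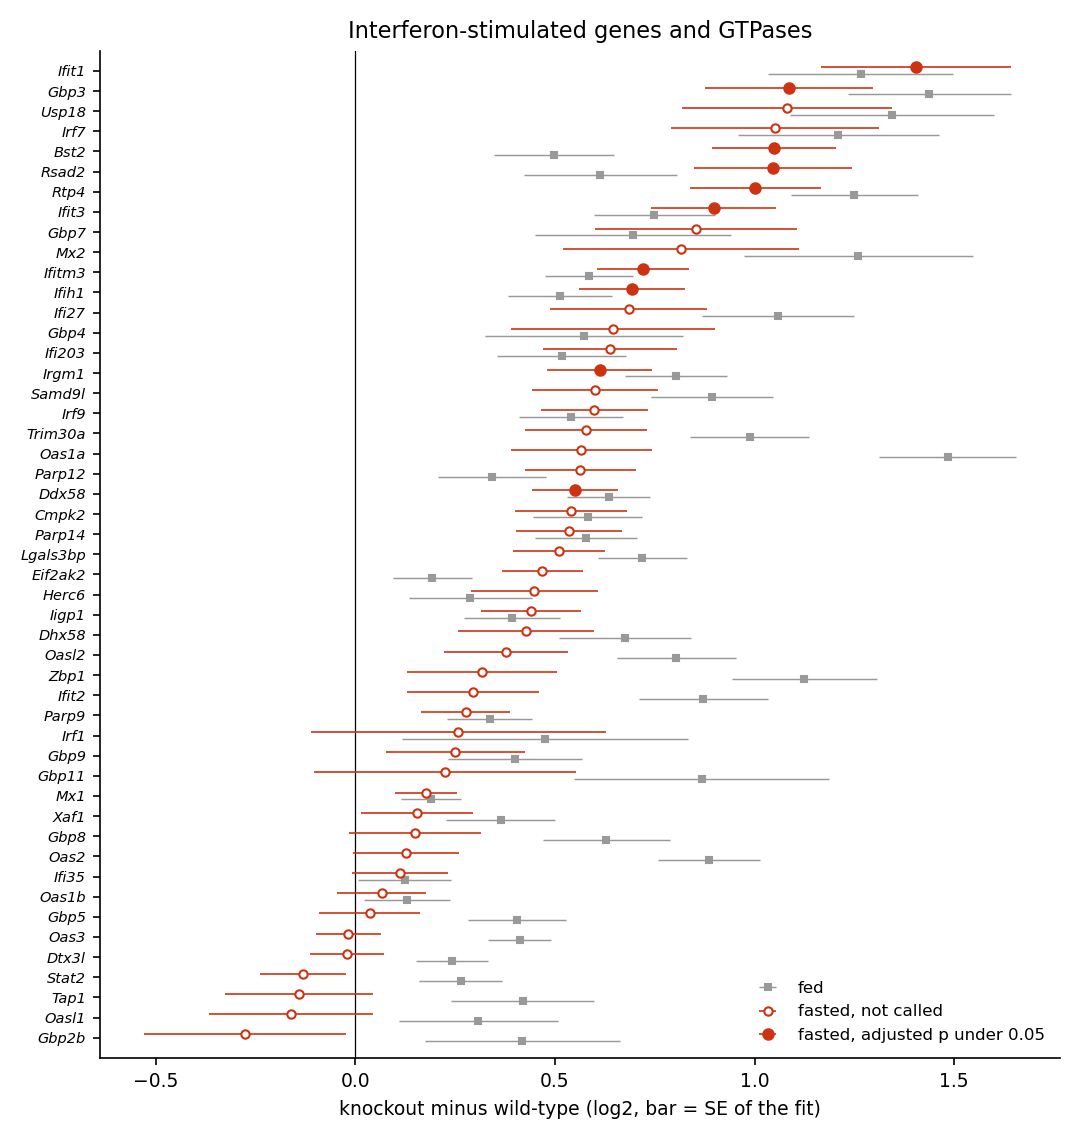
Knockout minus wild-type difference (x axis, log2, bars are the standard error of the fit) for 49 interferon-stimulated genes and GTPases in fasted mice (red) and fed mice (grey squares). Filled red points are the 10 genes that passed in fasted mice; 43 of the 49 fasted values and all 49 fed values lie above 0.

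Markers of resident macrophages lay mostly above 0. Of 21 Kupffer cell and macrophage markers, Clec4f, a lectin found on Kupffer cells, rose by 0.54 ± 0.12 (adjusted p = 0.0474), beside 0.351% of all genes called higher. The list's median was 0.28, and 20 members were above 0, as were 8572 of the 19935 genes tested. Clec4f read 6.95, 7.25, 7.19, 6.74 and 6.94 in wild-type and 7.41, 7.57 and 7.69 in knockout fasted mice. The groups do not overlap for this gene, but the list's score did, at -0.02 to 0.14 in the knockout and -0.54 to 0.02 in wild-type fasted mice. In RNA of whole liver, a change in the number of such cells and a change in RNA per cell cannot be told apart. The part of these cells in the interferon result was not tested. T and NK cell, B cell, neutrophil, sinusoidal endothelial, stellate, bile duct, fat, red cell, pancreas and muscle marker lists held no call. Their medians were -0.08 to 0.25, apart from pancreas at -0.50 and muscle at 1.10, the lists raised in 1 wild-type and 1 knockout fasted mouse. The stellate list was close to the macrophage list, with 18 members above 0, 4 below and a median of 0.25. Sinusoidal endothelial markers had 15 above 0 and 5 below, with a median of 0.09.

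Feeding state was set beside these results through the fed mice, which share no array with the fasted groups, although all 4 groups share the fit's estimate of spread. In fed mice 90 genes were higher (0.451%) and 45 lower (0.226%) in the knockout. Of the 107 genes called in fasted mice, 89 had the same sign in fed mice (83.2%), beside 46.0% of all genes tested, and 16 were called the same way and none the opposite way. Those 16 are 15% of the fasted calls and 11.9% of the fed calls, which numbered 135 and became 51 without knockout fed mice 1 and 4. They were Hsd3b3, Ifit1, Ifit3, Ifitm3, Ddx58, Rtp4, Gbp3, Irgm1, Clec4f, Ly86 and Gadd45gip1 upward, and Acadm, Cd59a, Nmrk1, Sirt5 and Tpmt downward. So 7 of the 10 called interferon genes were called in both states, and 20 of the 49 interferon genes and GTPases were called in fed mice.

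**Figure D4:**
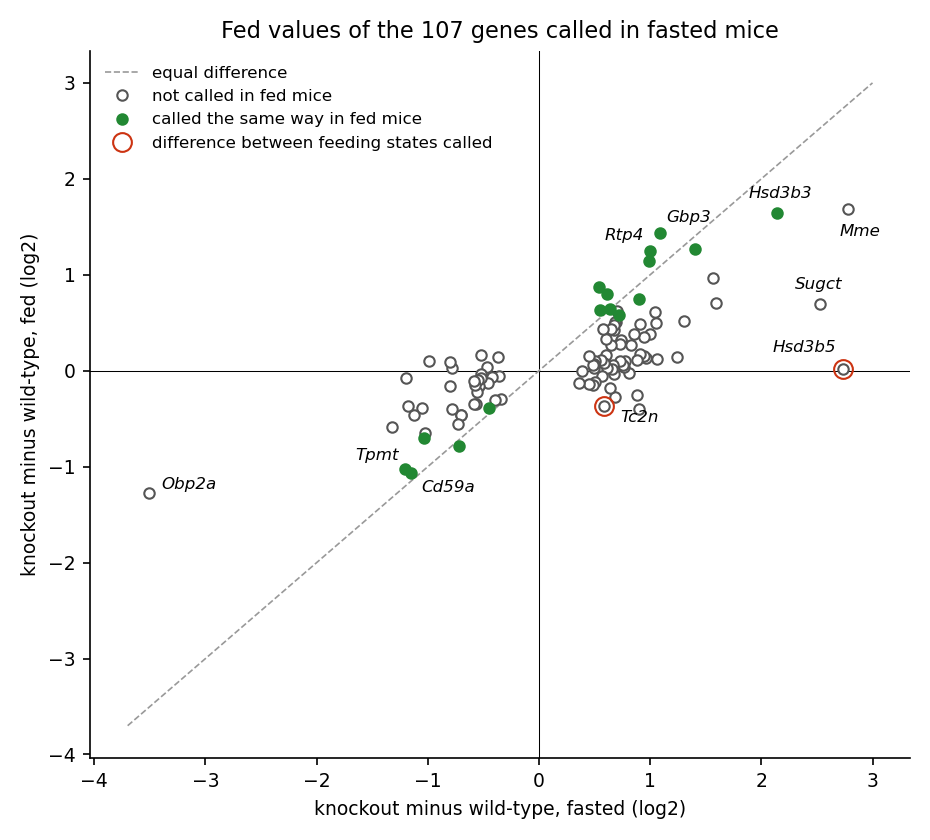
Knockout minus wild-type difference in fed mice (y axis, log2) against that in fasted mice (x axis, log2) for the 107 genes called in fasted mice. The 16 green points were called the same way in fed mice, red rings mark Hsd3b5 and Tc2n, and the median ratio of fed to fasted difference was 0.33. The x values chose these genes.

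Whether a difference depended on feeding was tested by the interaction, fasted difference minus fed difference, which passed for 2 genes of all tested (0.01%). For Hsd3b5 the wild-type fed values were 8.50, 8.30, 8.33 and 8.24, and the knockout fed values 8.27, 8.42, 8.74 and 8.03. The fed groups overlap and lie above all fasted mice, so the genotypes differed in the fasted state at 2.74 and in the fed state at 0.02 ± 0.26. The interaction was 2.72 ± 0.38 (adjusted p = 0.0284). Tc2n, a gene for a C2 domain protein, read 1.90, 2.01, 1.92, 1.78 and 2.01 in wild-type and 2.49, 2.54 and 2.49 in knockout fasted mice, all dim. Its interaction was 0.95 ± 0.14 (adjusted p = 0.0284), from a fasted difference of 0.58 ± 0.10 and a fed difference of -0.36. Neither gene kept its interaction call without knockout fasted mouse 1, 2 or 3, wild-type fasted mouse 3 or 4, wild-type fed mouse 3 or 4, or knockout fed mouse 1 or 4.

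For the other calls a difference between feeding states was not shown at an adjusted p under 0.05. Of all 107 called genes, 67 had an unadjusted interaction p under 0.05 (limma). The fasted values that chose these genes also enter the interaction and favour such a result, so the count is no test. Sugct was at 0.70 in fed mice (interaction adjusted p = 0.202), Mme at 1.68 (0.501) and Obp2a at -1.27 (0.326). In Sugct, 1 wild-type fed mouse read 4.37 and the other 3 read 6.16 to 6.75, near the 6.31 to 6.76 of the knockout fed mice. In Mme, wild-type fed mice spread from 2.36 to 4.64 and knockout fed mice from 3.78 to 5.68, with overlap. None of the 49 interferon genes and GTPases passed the interaction, where the lowest adjusted p was 0.175 and 8 had an unadjusted p under 0.05.

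The calls were uneven over the genome, by the gene order of GRCm38.p6. Chromosome 8 held 17 of its 955 tested genes (1.78%), chromosome 13 held 12 of 731 (1.64%), chromosome 3 held 12 of 943 (1.27%) and chromosome 19 held 7 of 675 (1.04%), beside 0.537% of all genes. Some calls were neighbours. Leprotl1 (0.74 ± 0.09) and Saraf (0.74 ± 0.13), the latter a regulator of calcium entry, rose side by side on chromosome 8, with no tested gene between them. Ifit3 and Ifit1, Cyp2c67 and Cyp2c70, and Hsd3b5 and Hsd3b3 are pairs of 1 family each. On chromosome 13 the zinc finger genes Zfp708, Zfp455, Zfp874a and Zfp87 rose by 0.45 to 0.86 within a stretch of close copies whose probes may mix. These neighbours, apart from the Ifit, Cyp2c and Hsd3b pairs, were picked after their values were seen.

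Chromosome 17, which carries Ppard, held 3 called genes of 936 (0.321%), and all 3 were among the 300 tested genes nearest to Ppard, 150 on each side (1%). Glo1, which detoxifies methylglyoxal, read 8.64, 9.22, 8.94, 8.78 and 9.14 in wild-type and 10.03, 9.86 and 9.77 in knockout fasted mice. Its groups are apart, and the rise of 0.94 ± 0.12 (adjusted p = 0.00227) held under each of the 18 alternatives. A second probe set of Glo1 gave 0.95 ± 0.13, and both sets had a mean of 9.52 over all arrays. Their probes may share sequence, so the second set is no separate check. Btbd9, the gene next to it, rose by 0.57 ± 0.11 (adjusted p = 0.0199). Btnl5-ps, a pseudogene read near the dim level, fell by 0.52 ± 0.11 (adjusted p = 0.0413), while its other probe sets did not pass. In fed mice Glo1 was at 0.35 and Btbd9 at 0.44, and neither passed (limma, adjusted p = 0.196 and 0.0615). In both genes, though, every knockout fed mouse lay above every wild-type fed mouse.

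**Figure D5:**
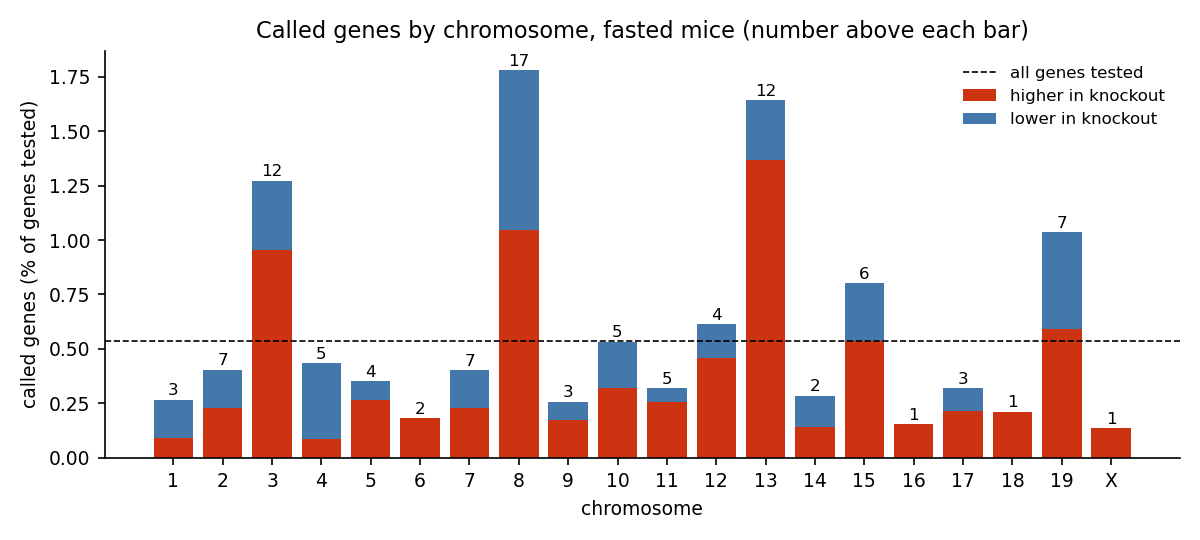
Called genes as a percent of the genes tested on each chromosome (y axis, from 0) in fasted mice, red for higher and blue for lower in the knockout, with the number called above each bar. The dashed line is the share over all genes, 0.537%; chromosomes 8, 13, 3 and 19 stand above 1%, and chromosome 17, which carries Ppard, is at 0.321%.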

How the data were processed

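Liver RNA of 16 mice was measured on Affymetrix whole-transcript arrays, 1 per mouse. The deposited values are probe set intensities on a linear scale. Per the submitters' processing notes the authors used RMA, whose version, like the genome build, no source used here gives. Array medians were 8.08 to 8.61, and log2 was taken here. Of 35519 probe sets, 21780 have 1 gene symbol, 1605 several and 12134 none. For the 998 genes with several, the probe set of highest mean stood for the gene, leaving 19935 genes. Their number of arrays limits the precision, and no counts of molecules stand behind an intensity.

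All 16 arrays entered 1 limma 3.58.1 fit (lmFit and eBayes, R 4.3.3) of 4 group means (degrees of freedom: 12 residual, 4.55 prior). Contrasts were knockout minus wild-type in fasted mice, the same in fed mice, and the difference of both. Tests were two-sided and adjusted by Benjamini-Hochberg over all genes. Labels call the samples biological replicates. The fit was tested on simulated data.

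The comparison, the 29 pathway and 12 cell type lists and the naming rule were chosen with earlier results of these data known. The rule named the PPAR genes, the 14 largest rises and 14 largest falls among called genes whose groups did not overlap (without predicted or unnamed loci, smell receptors, small RNAs and antigen receptor segments), up to 4 called members of each list or 2 of lowest p where none passed, called genes among the 150 on each side of Ppard, and up to 4 interaction calls each way. It gave 94 genes. Other named genes were chosen after their values were seen.

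Alternatives changed the values (quantile normalization, arrays centred on a common median), the features (no genes with a mean below log2 2.79, the 40th percentile; every probe set; the median where a gene has several) or the fit (robust variance with a trend, weights for arrays, a block by replicate number, the 2 groups alone). Each array in turn, and knockout fed mice 1 and 4 together, were left out. Leaving out knockout fasted mouse 1 and wild-type fasted mouse 5 together was added after seeing the data. Promoter windows came from RefSeq (GRCm38.p6), with a window for 87 of the 107 called genes.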

Additional observations from a re-analysis of the deposited data

Results flagged for a closer look

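Among 135 gene values and list scores looked at in the 5 wild-type fasted mice, 9 (6.67%) had 1 mouse far from the others by Dixon's criterion (a gap over 0.71 of the range), near the share of 5% that chance would flag. Wild-type fasted mouse 3 stood above the rest for interferon genes: its score was -0.262 for interferon-stimulated genes (others -0.58 to -0.50) and 0.0632 for the GTPases (others -0.62 to -0.55), and Irgm1 read 5.77. The same mouse was low for Fam241b, at 3.87. Wild-type fasted mouse 1 read 11.4 for Fbp1, below the rest, and 10.1 for Pcx, above the rest, both gluconeogenic enzymes, and scored -0.0197 for bile acid genes, below the rest. Wild-type fasted mouse 2 had the lowest score of cholesterol synthesis, -0.936. Wild-type fasted mouse 5 scored 1.76 for exocrine pancreas markers.

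The knockout difference depended on feeding, by the interaction test in limma, for 2 genes. For Hsd3b5 the fasted minus the fed difference was 2.72 on the log2 scale. For Tc2n it was 0.95, from a difference of 0.58 in fasted mice and one of the opposite sign, -0.36, in fed mice, with all fasted and fed values under the level taken as dim.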

How the results depend on the processing

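With 3 knockout mice, the number of calls depended on single animals. Leaving out 1 fasted mouse at a time, genes called higher ranged from 14 (without knockout fasted 3) to 73, against 70, and genes called lower from 6 (without knockout fasted 2) to 38, against 37. For calls higher, the counts were 34 without knockout fasted 1, 16 without knockout fasted 2, 40 without wild-type fasted 4 and 38 without wild-type fasted 5; for calls lower, 22 and 7 without knockout fasted 1 and 3. Without knockout fasted 1 and wild-type fasted 5 together, 16 genes were higher and 18 lower, and 47.1% of the calls were higher against 65.4%. Array weights gave 115 higher and 70 lower. The cause was not tested.

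In fed mice 135 calls became 76 in a fit of the fed groups alone, 51 without knockout fed mice 1 and 4, and 59 to 274 leaving out 1 mouse. Interaction calls numbered 2, and 1 with dim genes left out, with all probe sets, with the intensity trend, and without knockout fasted 1 and wild-type fasted 5. Without knockout fed mice 1 and 4 there was 1 call, of another gene. Leaving out 1 mouse gave 0 to 8. None of the 94 genes named by the rule changed the sign of its fasted difference under an alternative. The signs of genes named later were not checked. With the replicate number as a block, 79 genes were higher and 43 lower, and all 70 and 37 were among them. Same-numbered fasted mice correlated at -0.08 to 0.10 in 3 pairs, which are too few to tell whether the number stands for a pairing.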
